A study of Drosophila melanogaster with 6 samples.

Results

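The mRNAs of the translation factors were taken as the genes whose name in the experiment 2 tables begins with eIF, eEF or eRF. These were 53 of 17398 genes: initiation factors (eIF1 to eIF6 with their subunits), elongation factors (eEF1, eEF2, eEF5, eEFSec) and the release factors eRF1 and eRF3. They were measured by RNA immunoprecipitation and sequencing, in which an antibody is used to pull a protein and its RNA from a lysate. The material was ovaries of wild-type Oregon-R Drosophila melanogaster, from about 200 pooled young females per experiment, at most 12 hours after eclosion, with no treatment or transgene. In each of 2 experiments a lysate was split among anti-Lsd1 (a histone demethylase), anti-Bre1 (a ubiquitin ligase for H2B) and IgG, the background control, giving 6 libraries, 2 per antibody. The study looked for noncoding RNAs held by complexes of either protein.

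Translation begins when eIF2 brings the initiator tRNA to the small ribosomal subunit, which eIF3, eIF1 and eIF1A prepare, while eIF4E, eIF4G and eIF4A bring the capped mRNA. eIF5 and eIF5B then act in the joining of the large subunit, eEF1 delivers each next tRNA, eEF2 moves the ribosome on, and eRF1 with eRF3 ends the chain at a stop codon. In the ovary, germline cells make large stores of ribosomes and mRNA for the egg, and control of initiation through the cap is a known means of keeping maternal mRNAs silent.

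The libraries differed in depth, and those of the same antibody were not alike. Leaving out ribosomal RNA, experiment 1 held 1474418 (IgG), 1640930 (Lsd1) and 209292 (Bre1) fragments, and experiment 2 held 8739562, 1619605 and 7447852 exon reads. The shallowest library of each experiment was therefore Bre1 in experiment 1 and Lsd1 in experiment 2. Ribosomal RNA took 57.6% (IgG), 88.7% (Lsd1) and 76.3% (Bre1) of all exon reads in experiment 2. Levels are FPKM (experiment 1) or RPKM (experiment 2), which are per length of RNA, divided by a scale factor for each library, and are called scaled levels. Where 3 values are followed by 3 more, the first set is from experiment 1 and the second from experiment 2, each in the order IgG, Lsd1, Bre1. Ratios over IgG are log2((scaled level + 1) / (scaled IgG level + 1)) within an experiment, which understates changes of low genes. The 12 ovarian germline markers looked for were all found, and 11 had a deposited value of at least 1 with IgG in experiment 1 and 12 in experiment 2. Their summed scaled level was 139, 187 and 63.3, then 309.7, 62.5 and 169.7. The 7 muscle sheath markers summed to 128, 86.1 and 96.5, then 46.3, 220.2 and 63.3. Germline markers were thus lowest, in either experiment, in the shallowest library, and muscle markers were highest in the Lsd1 library of experiment 2. The part of these differences in the values below was not tested. Markers of somatic ovary cells summed to between 12.0 and 26.0 in the 6 libraries, those of hemocytes to between 11.0 and 108 and those of fat body to between 28.0 and 164. The last sums rest on few genes. In each library 2 of the 5 hemocyte markers found and 1 of the 5 fat body markers had a deposited value of at least 1. With Lsd1 in experiment 2, the fat body markers other than Yp1 were under 0.01 as deposited. The 12 markers of the male germline summed to at most 1.71 in any library, and between 7 and 11 of them were under 0.01 as deposited.

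Of the 53 genes, 40 reached a value of at least 1 in at least 2 libraries and entered the fit across 6720 genes. Another 11 stayed below this filter, and eRF3 and eIF2Bepsilon were left out because the experiment 1 tables mark a transcript of each as a failed estimate. No translation factor passed the test. With Lsd1 over IgG, 0 of 40 were called in limma at an adjusted p under 0.05, where 0.0298% of all tested genes were called. For Bre1 over IgG the count was 0 of 40 against 0.0298%, and for Lsd1 over Bre1 it was 0 of 40 against 0.0595%. At an unadjusted p under 0.05, 2 of the 40 (eEF5 and eIF4B) stood below IgG with Lsd1, 0 with Bre1 and 0 between the antibodies, and the same threshold took 158, 260 and 80 of all genes. edgeR and DESeq2 on counts called 0 of the 40 as well in each comparison. All adjusted p-values of the 40 lay between 0.961 and 0.999 for Lsd1 and at 1.00 for Bre1 in limma. A p that misses the threshold with 2 libraries per antibody does not show that levels were alike, and the values below describe the libraries. Within an experiment the antibodies shared a lysate, and a ratio over IgG compares RNA recovered from it. Between the experiments, in such bulk libraries, fewer cells of a type and less RNA per cell cannot be told apart.

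By mean scaled level with IgG the elongation factors eEF1alpha1, eEF2, eEF1beta, eEF1gamma and eEF5 ranked highest of the 40, followed by eIF4A and eEF1delta. eEF1alpha1 carries aminoacyl-tRNA to the ribosome (FBgn0284245, dm6 chromosome 2R, 11891135 to 11895762). Its scaled levels were 1074, 1427 and 504, then 197, 661 and 346. The Lsd1 libraries were above IgG in both experiments, and the Bre1 library lay below IgG in experiment 1 and above it in experiment 2. Its fitted change for Lsd1 over IgG was 1.08 ± 1.76 (SE, 2 experiments; limma adjusted p = 0.961). The Lsd1 ratio of experiment 2 was 1.74 but turned to -0.67 in the values as deposited and to -2.87 after quantile normalization.

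The eEF1 exchange complex, which reloads eEF1alpha with GTP, has the subunits eEF1beta, eEF1gamma and eEF1delta. eEF1gamma stood at 170.0, 152 and 144, then 52.5, 451 and 86.5. Its ratio of 3.08 in the Lsd1 library of experiment 2 was the highest of the 40, beside -0.16 for the same antibody in experiment 1. eEF1beta had 199.6, 143 and 77.1, then 32.8, 47.3 and 43.0. eEF1delta was at 50.1, 38.4 and 48.3, then 65.2, 17.2 and 70.2. In the Lsd1 library of experiment 2 the ratios of these subunits therefore ran from -1.87 for eEF1delta through 0.51 for eEF1beta to 3.08 for eEF1gamma.

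The translocase eEF2 had 390.0, 349 and 192, then 128, 49.9 and 246. eEF5, known elsewhere as eIF5A and a carrier of the modified residue hypusine that helps stalled ribosomes on (chromosome 2R, 24057798 to 24059483), had 152, 108 and 16.4, then 56.1, 1.76 and 51.9. Both antibodies gave eEF5 below IgG in both experiments, with ratios of -0.49 and -4.37 for Lsd1 and -3.14 and -0.11 for Bre1. The Bre1 ratio of experiment 2 turned its sign under other scalings, and the Lsd1 ratios did not. Its Lsd1 library of experiment 2 held 25 exon reads, against 4325 with IgG, and its Bre1 library of experiment 1 held 29 fragments against 1677. The fitted change of eEF5 was -2.43 ± 1.03 for Lsd1 (SE, 2 experiments; limma adjusted p = 0.961) and -1.62 ± 1.03 for Bre1 (limma adjusted p = 1.00). Leaving out the first Lsd1 library made the Lsd1 change -5.13, and leaving out the second made it 0.26. The experiment term then comes from the other antibodies, so such a change, here and below, is not the ratio of the remaining experiment.

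**Figure D1:**
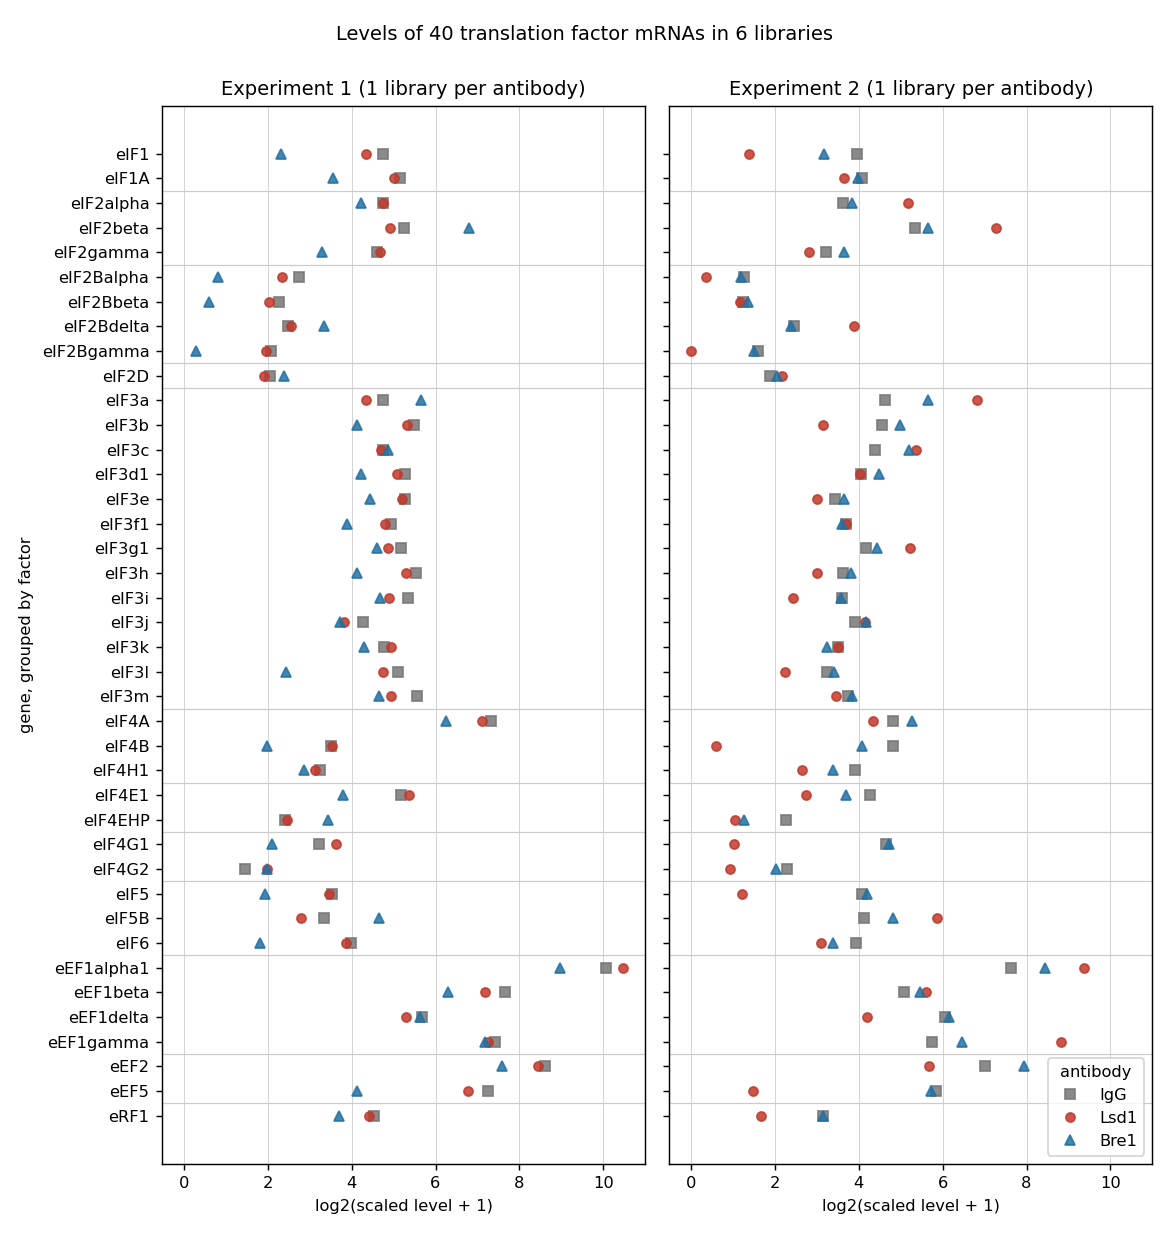
Levels of 40 translation factor mRNAs, grouped by factor (horizontal lines), as log2(scaled level + 1) on the horizontal axis, in the 3 libraries of each experiment. In experiment 1 the Lsd1 points lie close to IgG and the Bre1 points mostly to the left; in experiment 2 the Bre1 points lie close to IgG and the Lsd1 points spread to both sides, with eEF1gamma at 451 and eEF5 at 1.76.

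Taken by antibody, the 40 mRNAs had a median ratio for Lsd1 of -0.15 in experiment 1 and -0.45 in experiment 2, beside 0.03 and -0.84 for all 6720 tested genes. With Bre1 the medians were -1.03 and 0.12, beside -0.40 and -0.23 for all genes. These medians move with the scaling: for Lsd1 in experiment 2 that of the 40 was -2.47 in the values as deposited, -0.24 after quantile normalization and 1.04 after upper quartile scaling. For Bre1 in experiment 1 it was -2.64, -0.08 and -0.52 under the same 3 scalings. Ratios beyond 1 on the log2 scale either way were found for 0 of the 40 with Lsd1 in experiment 1 (all genes 0.923%) and for 24 in experiment 2 (47.2%). For Bre1 they were found for 24 in experiment 1 (29.5%) and 2 in experiment 2 (4.18%). The 2 beyond 1 with Bre1 in experiment 2 were eIF3a at 1.03 and eIF4EHP at -1.01.

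The spread of ratios showed the same libraries apart. The SD over the 40 was 0.26 for Lsd1 in experiment 1 and 1.68 in experiment 2, where all genes had 0.38 and 1.06. For Bre1 it was 1.07 and 0.47, beside 0.98 and 0.41. The Lsd1 ratio was above 0 in both experiments for 2 of the 40, eEF1alpha1 and eIF2Bdelta (all genes 6.41%), and below 0 in both for 20 (34.7%). The Bre1 ratio was above 0 in both for 5 (9.91%) and below 0 in both for 13 (52.6%). Under all of the 4 scalings tried, 0 of the 40 stayed above 0 in both experiments with Lsd1 (all genes 0.387%) and 3, eEF1delta, eEF5 and eIF1, stayed below (8.08%). With Bre1, 0 stayed above (0.208%) and 4, eIF1, eIF4B, eIF4E1 and eIF6, stayed below (26.1%).

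**Figure D2:**
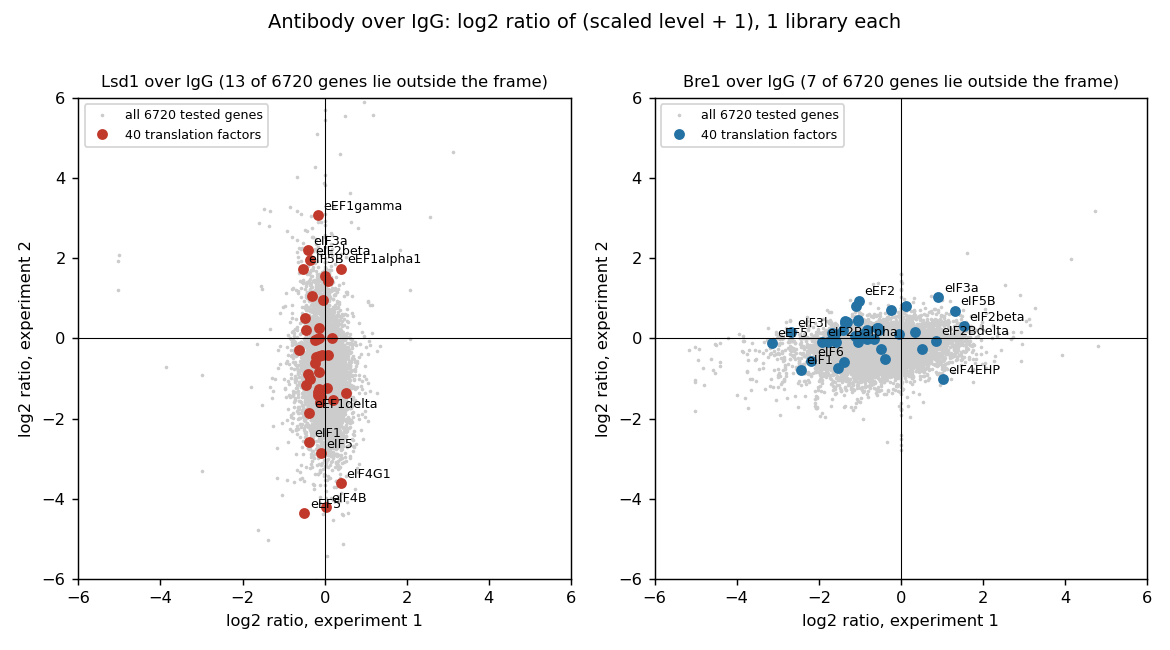
Log2 ratio over IgG in experiment 1 (horizontal) and experiment 2 (vertical) for Lsd1 (left) and Bre1 (right), with all 6720 tested genes in grey and 40 translation factor mRNAs in colour. The Lsd1 points form an upright band, with an SD of 0.26 across and 1.68 up and down, and the Bre1 points a flat band, with 1.07 across and 0.47 up and down.

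Across experiments, which share no library, the ratios of the 40 mRNAs were compared as a description. The Spearman correlation over the 40 genes was -0.13 between the Lsd1 ratios of the experiments (all genes -0.14) and 0.28 between the Bre1 ratios (0.18). It was -0.24 between Lsd1 in experiment 1 and Bre1 in experiment 2 (-0.19). Between the ratios of the shallowest libraries, Bre1 in experiment 1 and Lsd1 in experiment 2, it was 0.53 (0.27). They had the same sign for 31 of the 40, a count not taken over all genes. In these libraries 8 and 13 of the 40 were above 0 (all genes 30.4% and 15.7%). Ratios of the same antibody had the same sign for 22 (Lsd1) and 18 (Bre1). Of all genes, 6.41% were above 0 in both experiments and 34.7% below with Lsd1, and 9.91% and 52.6% with Bre1. In scaled levels the pair of shallowest libraries correlated at 0.85 over the 40, IgG with Lsd1 in experiment 1 at 0.97, IgG with Bre1 in experiment 2 at 0.93 and the IgG libraries with each other at 0.67. Shallowest is meant within an experiment: Bre1 in experiment 1 held 209292 fragments and Lsd1 in experiment 2 held 1619605 exon reads. Depth thus differed among these libraries, and within an experiment the quantification was shared. The part of either in the correlations was not tested.

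The initiation factor eIF3, the large scaffold of the small subunit, had 13 tested subunit genes of 16 members. With IgG their scaled levels lay close together, from 18.3 (eIF3j) to 46.3 (eIF3m) in experiment 1 and from 8.52 (eIF3l) to 23.6 (eIF3a) in experiment 2, so that the highest was 2.53 and 2.76 times the lowest. In the Lsd1 library of experiment 1 they were 3.00 times apart. In the Bre1 library of experiment 1 the highest, eIF3a, was 11.2 times the lowest, eIF3l, and in the Lsd1 library of experiment 2 the highest and lowest were again eIF3a and eIF3l, 30.1 times apart. With Bre1 in experiment 2 the levels were 5.80 times apart, from 8.44 (eIF3k) to 49.0 (eIF3a). The SD of log2(scaled level + 1) over the 13 was 0.38, 0.41 and 0.74, then 0.44, 1.29 and 0.75. Over 85 genes of cytoplasmic ribosomal proteins it was 1.07, 1.00 and 1.75, then 0.89, 2.42 and 1.08. Over all 6720 tested genes it was 1.38, 1.32 and 1.35, then 1.10, 1.40 and 1.11. The wide spread in the Bre1 library of experiment 1 and the Lsd1 library of experiment 2 was thus not particular to eIF3.

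The core subunit eIF3a (chromosome 3R, 4429798 to 4433895) had 25.8, 19.2 and 49.6, then 23.6, 112 and 49.0. In scaled level it stood above IgG in both Bre1 libraries and in the Lsd1 library of experiment 2. As deposited, its most abundant transcript in experiment 1 was at 18.7 FPKM with Bre1, below 36.4 with IgG. In experiment 2 eIF3a was at 41.4 RPKM with Lsd1, below 46.4 with IgG, and at 61.5 with Bre1. eIF3c, another core subunit, had scaled levels of 25.8, 25.0 and 28.2, then 19.9, 39.9 and 35.5, the same order as those of eIF3a in a smaller range. eIF3b, which helps hold the complex together, differed: 43.8, 38.9 and 16.5, then 22.6, 7.81 and 30.8. The subunit eIF3l had 33.3, 25.8 and 4.41, then 8.52, 3.72 and 9.63. eIF3m had 46.3, 29.7 and 24.0, then 12.4, 10.02 and 13.3, and eIF3i, a propeller-shaped subunit, 39.7, 28.7 and 24.6, then 11.1, 4.35 and 11.0. Fitted changes for Bre1 over IgG were 0.97 ± 1.01 for eIF3a and 0.46 ± 0.95 for eIF3c (SE, 2 experiments; limma adjusted p = 1.00 for each), and both became negative in the values as deposited. The Lsd1 change of eIF3i was -0.81 ± 0.87 (limma adjusted p = 0.961).

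**Figure D3:**
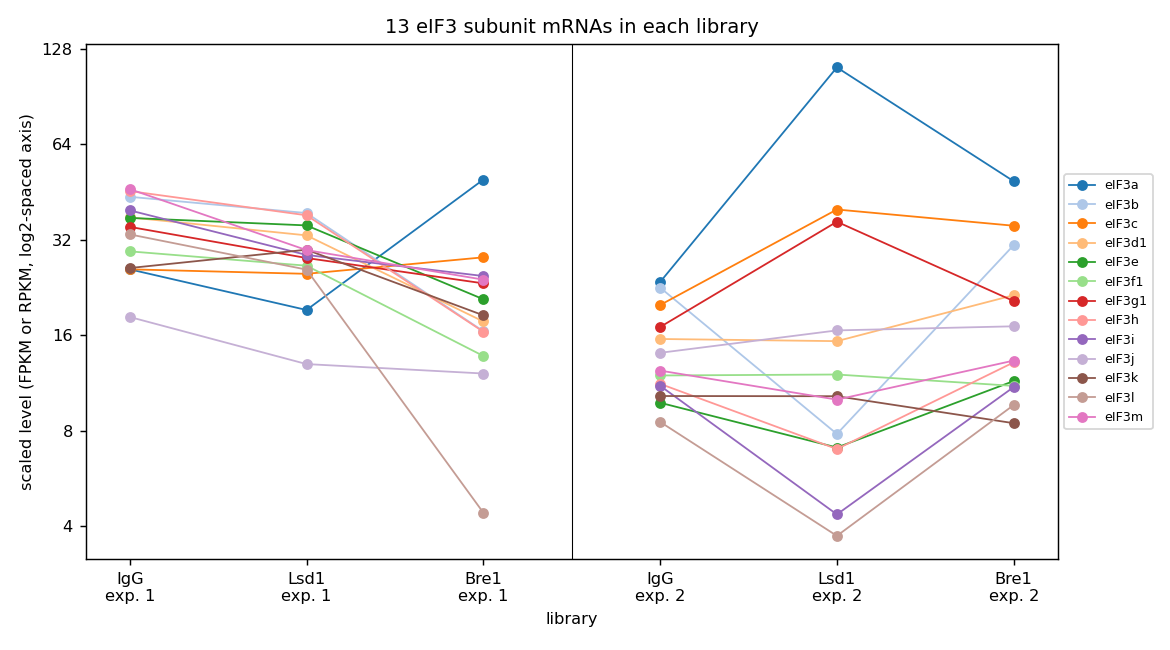
Scaled levels of 13 eIF3 subunit mRNAs (vertical axis, log2-spaced) in each of the 6 libraries, with lines joining the same gene within an experiment. The subunits lie within 2.53-fold and 2.76-fold of each other with IgG and spread to 30.1-fold with Lsd1 in experiment 2, where eIF3a is highest and eIF3l lowest, as they are with Bre1 in experiment 1.

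Subunits of eIF2, which binds the initiator tRNA, also parted from each other. eIF2beta (chromosome 3L, 12525093 to 12526731) had 37.2, 28.9 and 110.4, then 39.3, 154 and 48.9. eIF2alpha, the subunit whose phosphorylation limits initiation under stress, had 26.0, 25.9 and 17.6, then 11.3, 35.0 and 13.2. eIF2gamma, the GTP-binding subunit, had 23.2, 24.5 and 8.75, then 8.33, 5.97 and 11.5. In the Lsd1 library of experiment 2 their ratios were 1.94, 1.55 and -0.42, and in the Bre1 library of experiment 1 they were 1.54, -0.53 and -1.31. The fitted Bre1 change of eIF2beta was 0.92 ± 1.09 (SE, 2 experiments; limma adjusted p = 1.00); it was -0.27 without the first Bre1 library and -0.36 in the values as deposited. eIF2gamma overlaps Su(var)3-9, the gene of a heterochromatin methyltransferase, on the same strand over 3595 bases, and 90.5% of its exon reads with IgG were marked unique (95% Clopper-Pearson interval 89.1 to 91.9, counting error only, as for all such intervals here).

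The exchange factor eIF2B, which reloads eIF2 with GTP, was low throughout, with scaled IgG levels of its 4 tested genes from 3.21 to 5.71 in experiment 1 and from 1.34 to 4.47 in experiment 2. eIF2Bdelta had 4.58, 4.86 and 9.14, then 4.47, 13.8 and 4.25. Its Lsd1 ratios were 0.07 and 1.44, and the fitted change of 0.75 ± 0.77 (SE, 2 experiments; limma adjusted p = 0.961) became -0.16 in the values as deposited. eIF2Bgamma had 3.21, 2.89 and 0.22, then 2.02, 0 and 1.85. Its 0 with Lsd1 in experiment 2 stood for 0 exon reads against 299 with IgG, and set against 3 reads, which a count of 0 allows, it was at least 18.3-fold lower than IgG in scaled level. eIF2Balpha had 5.71, 4.06 and 0.76, then 1.40, 0.28 and 1.26, where the last Lsd1 value stood for 5 reads and the Bre1 value of experiment 1 for 2 fragments. eIF2Bbeta, at 1.26 with Lsd1 in experiment 2, rested there on 30 reads. For the subunit left out of the fit, eIF2Bepsilon, the deposited RPKM of experiment 2 was 3.53 with IgG, 0.38 with Lsd1 and 3.58 with Bre1.

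eIF2D, which can place tRNA without eIF2, stayed in a narrow range, with 3.12, 2.75 and 4.21, then 2.71, 3.46 and 3.15. eIF1, which guards the choice of start codon, was below IgG in all 4 antibody libraries, at 25.6, 19.4 and 3.94, then 14.5, 1.59 and 8.04. The Lsd1 and Bre1 values at the low end stood for 19 exon reads and 6 fragments. Its fitted changes were -1.48 ± 0.82 for Lsd1 and -1.61 ± 0.82 for Bre1 (SE, 2 experiments; limma adjusted p = 0.961 and 1.00). Leaving out the second Lsd1 library brought the Lsd1 change to 0.028. eIF1A, its partner on the small subunit, had 34.5, 31.4 and 10.8, then 15.8, 11.5 and 14.8.

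The cap-binding group held the abundant helicase eIF4A, at 158, 137 and 75.3, then 27.0, 19.3 and 37.7. Its stimulating factor eIF4B (chromosome 3L, 27842669 to 27858271) had 10.4, 10.5 and 2.92, then 27.0, 0.50 and 15.8. The Lsd1 value of experiment 2 stood for 17 exon reads against 4951 with IgG. The cap-binding protein eIF4E1 had 34.9, 40.2 and 12.8, then 18.2, 5.65 and 11.9. The scaffold eIF4G1 (chromosome 4, 915297 to 930715) had 8.32, 11.3 and 3.30, then 24.0, 1.04 and 25.2, with 120 exon reads with Lsd1 and 15044 with IgG in experiment 2. With Lsd1 in experiment 2 the ratios of eIF4B, eIF4G1 and eIF4E1 were -4.22, -3.61 and -1.53, and in experiment 1 they were 0.02, 0.40 and 0.20. The fitted Bre1 changes were -1.14 ± 0.82 for eIF4B and -0.98 ± 0.88 for eIF4E1 (SE, 2 experiments; limma adjusted p = 1.00 for each). Leaving out the first Bre1 library turned that of eIF4B to 0.32. eIF4H1 was at 8.52, 7.66 and 6.23, then 14.0, 5.20 and 9.40, and the rival cap binder eIF4EHP at 4.29, 4.47 and 9.72, then 3.83, 1.06 and 1.39.

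The late initiation factors differed among themselves too. The GTPase eIF5B (chromosome 3L, 3428658 to 3460977) had 9.08, 5.94 and 24.2, then 16.5, 57.6 and 27.3, above IgG in scaled level in the same 3 antibody libraries as eIF3a. As deposited, its most abundant transcript in experiment 1 was at 8.60 FPKM with Bre1, below 12.4 with IgG. In experiment 2 eIF5B was at 21.3 RPKM with Lsd1, below 32.6 with IgG, and at 34.2 with Bre1. Its fitted Bre1 change was 1.00 ± 0.89 (SE, 2 experiments; limma adjusted p = 1.00), and it was -0.22 in the values as deposited. eIF5, which activates the GTPase of eIF2, had 10.6, 9.91 and 2.83, then 16.0, 1.33 and 17.2. Its fitted Lsd1 change of -1.48 ± 0.81 (limma adjusted p = 0.961) was 0.33 without the second Lsd1 library. eIF6, which keeps free large subunits from joining, had 14.9, 13.5 and 2.50, then 14.3, 7.49 and 9.36, and a fitted Bre1 change of -1.37 ± 0.81 (limma adjusted p = 1.00). Values of eIF5 and eIF6 depend on how shared reads were counted: 91 of 4886 exon reads of eIF5 with IgG were marked unique in experiment 2, and 0 of 1444 of eIF6. eIF6 lies wholly within the span of ytr on the same strand, which had 3583 exon reads, and eIF5 shares its span with CG46312. In the same way 205 of 3378 reads of eIF4G2, which shares 10953 bases of its span with CG33111, were marked unique.

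Release was represented in the fit by eRF1, the stop codon reader, at 22.0, 20.4 and 11.9, then 7.83, 2.18 and 7.77. Its GTPase partner eRF3 had deposited levels of 20.3, 21.3 and 5.24 FPKM in experiment 1 and 27.7, 18.8 and 25.1 RPKM in experiment 2, for IgG, Lsd1 and Bre1. When genes with a failed estimate were kept, an alternative added after seeing the data, eRF3 had a fitted change of 0.77 ± 0.88 for Lsd1 and 0.24 ± 0.88 for Bre1 (SE, 2 experiments; limma adjusted p = 0.959 and 0.999).

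Several factors have a second gene, and in most such pairs the reads fell almost wholly on the main form. eEF1alpha1 had 46331 (IgG), 28626 (Lsd1) and 79984 (Bre1) exon reads in experiment 2, and eEF1alpha2 had 11, 0 and 5. In RPKM the ratio was 4540.1-fold with IgG, at least 10286-fold with Lsd1 against 3 reads, and 17243-fold with Bre1. Of the cap-binding proteins, eIF4E1 had 3889, 222 and 2487 reads and eIF4E3 and eIF4E4 0 in all 3 libraries. eIF4E5 had 2, 0 and 1, eIF4E6 1, 0 and 0, and eIF4E7 3, 0 and 2. eIF4E3, which in Drosophila acts in the testis, was therefore at least 603-fold lower in RPKM than eIF4E1 with IgG. The subunit forms eIF3d2, eIF3f2 and eIF3g2 had 0 reads in each library of experiment 2 and 0 fragments in each of experiment 1, and with IgG eIF3d1, eIF3f1 and eIF3g1 were at least 1106-fold, 398-fold and 529-fold higher in RPKM. In experiment 2 eIF4H2 had 0, 0 and 1 reads and eEFSec, the factor for selenocysteine, 53, 0 and 33. In experiment 1 the most abundant transcript of eIF4H2 was at 0.21 (IgG), 0.62 (Lsd1) and 0 (Bre1) FPKM. That of eIF4E6 was at 0.27, 0.30 and 0, and that of eEFSec at 0.60, 0.22 and 0. The exceptions were eIF4EHP and eIF4G2. eIF4EHP had 2345, 119 and 837 reads and an RPKM below that of eIF4E1 by 4.76-fold with IgG, 5.36-fold with Lsd1 and 8.53-fold with Bre1. eIF4G2, a form of the scaffold needed in spermatocytes, had 3378, 144 and 2598 reads, subject to the shared reads given above. Its RPKM was 6.17-fold lower than that of eIF4G1 with IgG, 1.15-fold with Lsd1 and 8.28-fold with Bre1.

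Read counts of experiment 2 also show where in a gene the reads fell. A junction read crosses a splice site and so comes from spliced RNA. Among 31 of the 53 genes with at least 100 exon reads in all 3 libraries and a junction read in any of them, the median junction share was 15.4% with IgG, 3.33% with Lsd1 and 13.5% with Bre1. Over 1694 protein-coding genes chosen the same way the medians were 12.96%, 6.02% and 12.4%. The Lsd1 interval lay wholly below that of IgG for 21 of the 31 (all genes 54.3%), wholly above it for 6 (14.3%) and overlapped it for 4. For Bre1 it lay below for 8 (14.9%), above for 5 (10.4%) and overlapped for 18. With 1 library each, this compares libraries and not antibodies.

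With Lsd1, 7 of the 31 had 0 junction reads (21.8% of the 1694 genes did), namely eEF1beta, eIF1A, eIF2alpha, eIF2D, eIF3e, eIF3k and eIF3m. eIF2alpha had 0 of 935 exon reads across junctions with Lsd1, which allows a share of up to 0.321% (3 reads, as for each count of 0 here), against 9.85% with IgG (95% Clopper-Pearson interval 8.44 to 11.4) and 10.6% with Bre1 (9.20 to 12.0). eEF1beta had 0 of 798, which allows up to 0.376%, against 9.08% with IgG (8.07 to 10.2). In the other direction, 38.5% of the 3058 reads of eIF2beta with Lsd1 crossed a junction (36.7 to 40.2), against 21.0% with IgG (19.8 to 22.2). The 6 above IgG with Lsd1 were eIF2beta, eIF2gamma, eIF3b, eIF3c, eIF3h and eIF4H1. eIF3c had 19.8% with Lsd1 (18.2 to 21.5) and 2.93% with IgG (2.53 to 3.37).

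**Figure D4:**
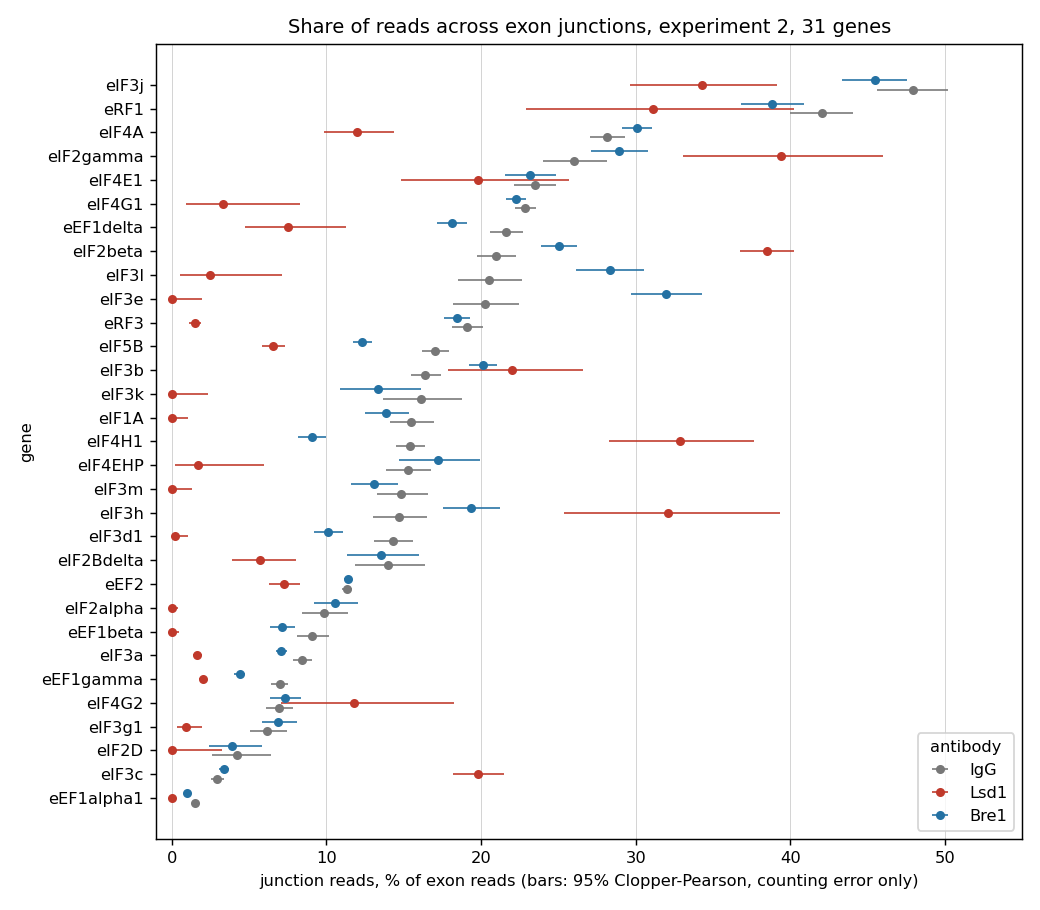
Junction reads as a percent of exon reads (horizontal axis) in experiment 2 for 31 translation factor genes, ordered by the IgG share, with bars for the 95% Clopper-Pearson interval of counting error. The Bre1 and IgG medians are 13.5% and 15.4%, and Lsd1 points spread from 0 for 7 genes to 39.4% for eIF2gamma.

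Intron reads were few. Their share of the gene reads of the 53 genes was 2.91% with IgG (interval 2.84 to 2.98), whereas Lsd1 had 0.0613% (0.0449 to 0.0817) and Bre1 0.422% (0.400 to 0.445). Over all genes outside ribosomal RNA the share was 7.98% with IgG, 2.66% with Lsd1 and 1.86% with Bre1, so it was below IgG there too. eIF4EHP, whose span covers 4164 bases of Syx1A on the same strand, had 52.9% of 4976 reads in introns with IgG, and eIF4B had 21.6% of 6315. With Bre1 these shares were 10.2% of 932 and 5.21% of 2997. With Lsd1 eIF4EHP had 0.833% of 120 and eIF4B 37.0% of 27 (19.4 to 57.6). The 53 genes together took 2.51% of exon reads outside ribosomal RNA with IgG (2.50 to 2.53), whereas Lsd1 had 4.63% (4.60 to 4.66) and Bre1 4.20% (4.19 to 4.22). The 3 with most reads in each library held 44.9%, 66.3% and 53.8% of these, so that eEF1alpha1 and a few others set the sum.

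The transcript tables of experiment 1 add the form of the mRNA. Of 26 tested genes with more than 1 listed transcript, the transcript with the highest FPKM was that of the IgG library for 24 with Lsd1 and 18 with Bre1. The share of a gene's FPKM that sat on other transcripts than with IgG had a median of 5.84% for Lsd1 and 8.36% for Bre1. The most abundant of these genes, eEF1alpha1, was one of the 8 with another leading transcript under Bre1. Its transcript FBtr0088035, which has an intron, took 96.3% of the gene's FPKM with IgG, 64.5% with Lsd1 and 1.20% with Bre1. FBtr0345022, which begins further downstream and whose length of 1979 bases equals its span, so that it has no intron, took 2.22%, 34.8% and 98.8%. In experiment 2, junction reads of the gene were 696 of 46331 exon reads with IgG, 6 of 28626 with Lsd1 and 801 of 79984 with Bre1. In either experiment the shallowest library was the lowest in the spliced form, and with 1 library each the part of depth or of uneven coverage was not tested. Transcript shares of low genes rest on few fragments: eIF4B, whose leading transcript had 62.9% with IgG and almost none with Bre1, had 12 fragments there.

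**Figure D5:**
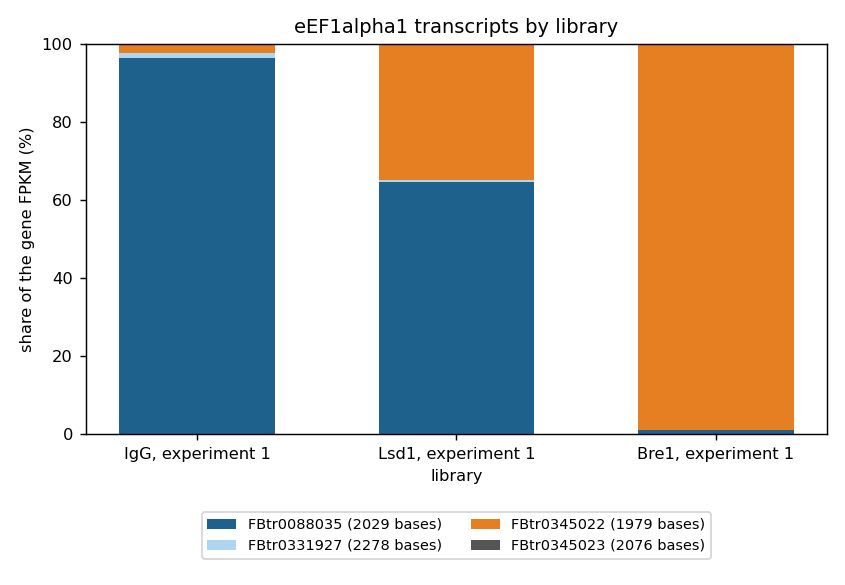
Share of the eEF1alpha1 FPKM (vertical axis, percent) assigned to each of its 4 listed transcripts in the 3 libraries of experiment 1. The intronless FBtr0345022 goes from 2.22% with IgG to 34.8% with Lsd1 and 98.8% with Bre1.

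Longer mRNAs had somewhat higher ratios in 3 of the 4 antibody libraries. The Spearman correlation of the ratio with exon length over the 40 genes was 0.46 for Lsd1 and 0.33 for Bre1 in experiment 1, and -0.07 and 0.19 in experiment 2. Over 6529 protein-coding genes it was 0.42, 0.52, 0.00 and 0.17 in the same order. These are descriptions across genes, which are not independent replicates.

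Other genes of the pathway gave 0 calls in either antibody comparison with IgG by limma. Of 22 regulators of initiation 21 were tested, and their median ratio was 0.20, then -1.25, for Lsd1 and -0.23, then -0.27, for Bre1 (experiment 1 first). The helicase me31B, which represses maternal mRNAs, had the largest fitted change of this list, from scaled levels of 39.3, 41.1 and 6.42, then 73.6, 0.74 and 46.2. crc, the fly ATF4, had 30.6, 30.9 and 2.68, then 9.01, 0.90 and 7.08, and the repressor nos, also among the germline markers, 5.81, 10.2 and 1.11, then 13.5, 1.21 and 4.09. All 6 genes of ribosome rescue and recycling were tested, with medians of -0.19 and -0.06 for Lsd1 and -0.81 and -0.06 for Bre1. Among these MCTS1, a partner in recycling, had 6.45, 5.38 and 0.52, then 3.49, 2.42 and 2.32, HBS1, which frees stalled ribosomes, was at 7.50 with Lsd1 and 2.25 with IgG in experiment 2, and its partner pelo was at 2.09 and 6.57.

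Of 8 enzymes that modify eEF5 or eEF2 (hypusine and diphthamide), 6 were tested, with medians of -0.10 and -1.15 for Lsd1 and -1.32 and -0.43 for Bre1. The hydroxylase nero, which completes hypusine, had 8.78, 7.02 and 2.00, then 7.15, 2.35 and 4.90. It stood below IgG in each antibody library, as eEF5 did, but the other tested enzymes were mostly alike. With Lsd1 0 of the 6 were above IgG in either experiment, and with Bre1 0 in experiment 1 and 1 in experiment 2. Of all tested genes, 34.7% were below IgG in both experiments with Lsd1 and 52.6% with Bre1. CG11652 (Dph1 in RefSeq) had Lsd1 ratios of -0.08 and -1.25, and CG14701 (Dph3 in RefSeq) had -0.12 and -1.96. Among 10 mitochondrial factors 9 were tested, with medians of -0.03 and -0.58 for Lsd1 and -0.46 and -0.07 for Bre1. mIF3, mEFG1 and mRRF1, which act in initiation, elongation and recycling on the mitochondrial ribosome, had the largest fitted changes of that list and Lsd1 ratios in experiment 2 of -1.34, -1.43 and -1.03. In experiment 1 the Lsd1 ratios of these genes were -0.001, -0.03 and -0.02. Of 25 names for cytoplasmic aminoacyl-tRNA synthetases and their cofactors 23 were tested, with medians of -0.16 and -0.27 for Lsd1 and -0.73 and 0.33 for Bre1. AIMP3 led this list by its Bre1 change, followed by IleRS and TyrRS by their Lsd1 changes. The Bre1 ratios of these genes were -1.92, -1.81 and -1.31 in experiment 1 and -0.49, 0.70 and 0.34 in experiment 2. For IleRS and TyrRS the Lsd1 ratios were -0.25 and -1.15 in experiment 1 and -1.97 and -0.74 in experiment 2.

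The mRNAs of cytoplasmic ribosomal proteins, a class of short and abundant mRNAs, are set beside these for scale. Their 85 tested genes had median ratios of -0.47, then 0.48, for Lsd1 and -2.28, then 0.01, for Bre1, against -0.15, -0.45, -1.03 and 0.12 for the translation factors. No test of the difference between the classes was made.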

How the data were processed

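The 53 genes and all lists used beside them were chosen with earlier results of these data known. Per the labels' protocols, RNA was not selected for poly(A) tails and a TruSeq RNA kit (version 2) was used. That kit leaves strand unmarked, so overlapping genes on opposite strands are unresolved. Per the submitters' processing notes, Cufflinks, TopHat, SAMtools 0.1.18.0 and Bowtie2 2.0.6.0 were among the tools, with dm6 as the build. For experiment 1 the authors deposited FPKM per transcript with confidence limits, per the file headers, and for experiment 2 gene tables of RPKM and read counts for exons, introns and junctions, again per the file headers. The program behind the latter, and what it takes as unique: not given in the sources used here. FPKM had been assumed throughout, so RPKM took its place in experiment 2, and experiment and quantification cannot be told apart.

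Transcript FPKM was summed per gene. Of the 53 genes, 51 were joined between the experiments by FlyBase identifier and 2 (eEF1alpha1 and eEF5) by an identical span. Fragments of experiment 1 were recovered from the confidence limits of genes with 1 transcript, of which 83.0% (IgG), 83.6% (Lsd1) and 79.7% (Bre1) were whole within 0.05 among low genes, and were modelled for the others. The test covered the 6720 genes that reached 1 in 2 or more of the 6 libraries. A scale factor per library came from median ratios across 1036 genes, and log2(scaled value + 1) was fitted in limma 3.58.1 (lmFit, then eBayes with trend, in R 4.3.3) on all 6 libraries, by antibody and experiment, with 2 residual and 112.7 prior degrees of freedom. The SE of each gene therefore rests mostly on genes of like abundance. Adjusted p-values are Benjamini-Hochberg over all 6720 genes, with a threshold of 0.05. Replicates are 2 lysates per antibody, and p-values measure only the spread between these libraries, part of which may be technical. The block for experiment follows the labels, by which each lysate was shared out among the antibodies. Deviations from the antibody means correlated at 0.47 (IgG with Lsd1), 0.51 (IgG with Bre1) and 0.11 (Lsd1 with Bre1), which the different quantification alone can produce.

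Values in every library were given for the 10 members most abundant with IgG. They were also given for up to 6 members per direction with the largest fitted change among those of the same sign in both experiments. Pairs of related genes were given mainly by read counts and fold differences in RPKM. From each other list the 3 genes with the largest fitted change were named. Levels in every library were given for me31B, crc, nos, MCTS1 and nero, and only some levels or ratios for the rest. Other members and features were named after their values were seen. Alternatives were edgeR 4.0.16 and DESeq2 1.42.0 on the recovered fragments and deposited counts, other pseudocounts, filters and scalings, a fit without the block or the trend, and leaving out each library. The fit was tested on simulated data.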

Additional observations from a re-analysis of the deposited data

How the results depend on the processing

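No translation factor was called in any of the 3 comparisons under any alternative, except that 6 (eIF4B, eIF4G1, eEF5, eIF5, eIF1 and eIF2Bgamma, all lower) were called for Lsd1 over IgG without the first Lsd1 library, where the counts over all genes rose from 2 to 1687 (66 higher, 1621 lower). A lone library left for an antibody is assumed to vary like the others. Leaving out each library in turn gave between 0 and 1687 calls over all genes for Lsd1 over IgG, 0 and 45 for Bre1 over IgG and 0 and 26 for Lsd1 over Bre1, between 0 and 6 members called for Lsd1, and a median fitted change of the members between -0.82 and 0.17 for Lsd1 over IgG (main -0.38), between -1.01 and 0.15 for Bre1 over IgG (main -0.39) and between -0.48 and 0.72 for Lsd1 over Bre1 (main 0.04).

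Over all genes, the calls (2, 2 and 4 for Lsd1 over IgG, Bre1 over IgG and Lsd1 over Bre1) were 0, 0 and 0 without the replicate block, with a pseudocount of 0.1, with no filter, in the values as deposited, after quantile normalization, after upper quartile scaling and in edgeR. They were 15, 1 and 15 with a pseudocount of 5, 3, 5 and 4 with a minimum of 5, 0, 0 and 1 without the mean-variance trend, and 11, 1 and 8 in DESeq2. The block changed no call of a member. At an unadjusted p under 0.05, edgeR took 33, 26 and 49 genes and the fit without the block 37, 65 and 25. The median change of the members for Lsd1 over IgG was -1.10 in the values as deposited, -0.16 after quantile normalization, 0.32 after upper quartile scaling, 0.21 in edgeR and 0.23 in DESeq2, and for Bre1 over IgG it was -1.57 in the values as deposited. Keeping genes with a failed estimate, chosen after seeing the data, left all these counts as they were.

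Of the single members named by their fitted change, 16 values reversed, 4 passed the threshold only without the first Lsd1 library (eEF5, eIF1, eIF5 and eIF2Bgamma) and 321 kept their direction and their side of it. In the values as deposited the reversed changes were eIF2Bdelta -0.16 for Lsd1, and eIF5B -0.22, eIF3a -0.30, eIF2beta -0.36, eIF3c -0.79 and eIF2D -0.74 for Bre1; after quantile normalization eEF1alpha1 was -1.43 for Lsd1. Leaving out each library, the Lsd1 change ran from -0.16 to 1.67 for eIF2Bdelta, from -5.13 to 0.26 for eEF5, from -3.00 to 0.028 for eIF1, from -3.29 to 0.33 for eIF5 and from -2.02 to 0.31 for eIF2Bgamma, and the Bre1 change from -0.27 to 2.12 for eIF2beta, from -4.11 to 0.86 for eEF5, from -2.60 to 0.32 for eIF4B and from -2.05 to 0.041 for eIF2Balpha. The signs that turned did so without the second Lsd1 library and without the first Bre1 library. Without a library of an antibody, the experiment term comes from the other antibodies, so the fitted change is not the ratio of the remaining experiment. For eEF5 without the second Lsd1 library it was 0.26, beside an Lsd1 ratio of -0.49 in experiment 1. In the values as deposited, 80.97% and 1.18% of all genes were above IgG with Lsd1 in experiments 1 and 2, and 1.53% and 2.69% with Bre1. The cause of the reversals was not tested. Counts of 25 or fewer reads or fragments lie behind the lowest values of eEF5, eIF1, eIF4B and eIF2Balpha. The junction genes of the report, which do not rest on the IgG share, were chosen after seeing the data. Those first chosen by an IgG share of at least 5% (28 genes) had medians of 15.8% (IgG), 4.51% (Lsd1) and 15.5% (Bre1), with 20 below IgG and 5 above for Lsd1 and 7 and 5 for Bre1.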
